A study of Mus musculus with 6 samples.

Results

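Solute carrier genes encode membrane transporters and are named Slc, the number of a subfamily and a letter and number for the member. From the count table of NMuMG cells treated with TGFβ1, the rows whose symbol starts with Slc and a digit were taken, without Slc7a11, Slc2a1, Slc16a1, Slc16a3, Slc7a5, Slc3a2, Slc7a1, Slc1a5 and Slc38a2. A row was kept if it had at least 2 CPM (counts scaled to the total of the library) in 2 or more of the 6 libraries. Of 371 such rows 362 remained after the 9 exclusions, and 176 passed the level filter, in 41 subfamilies, out of 21240 genes in the table. The other 186 rows stayed below the filter, and 60 of those had 0 counts in all libraries. The members were thus chosen by their CPM level, whichever group it came from. The members just inside the limit were Slc44a4, Slc25a42 and Slc11a1, whose second-highest libraries had 2.04, 2.11 and 2.16 CPM. Just outside were Slc2a5, Slc7a3 and Slc10a2, at 1.96, 1.94 and 1.78 CPM. In all 6 libraries 155 members had at least 2 CPM. Slc17a9 and Slc25a42 passed only through the vehicle libraries, and Slc37a2 and Slc39a2 only through the 12 h libraries, so a difference between groups was built into these 4.

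NMuMG is an epithelial line from the normal mouse mammary gland. The cells were grown with serum and insulin, then kept 6 h in medium without either. They were given 5 ng/ml TGFβ1, which was left on for 2 h or 12 h, or its acid and albumin solvent (vehicle) for 2 h. Each of the 3 groups had 2 libraries labelled as biological replicates. Stranded total RNA was sequenced, and the p-values measure the spread between these libraries. Vehicle was sampled at 2 h only, so cells at 12 h had also spent 10 h longer without serum and insulin. TGFβ1 and the longer time cannot be told apart in the comparison of 12 h with vehicle. In RNA from a whole culture, fewer cells with a transcript and less of it per cell cannot be told apart either.

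A solute carrier moves its substrate across a membrane either down its gradient or coupled to an ion that flows with or against it, and does not hydrolyse ATP itself. In the plasma membrane of epithelial cells these proteins import nutrients and trace metals and set cell volume and pH. In the Golgi apparatus, lysosomes and mitochondria they supply sugars, metals and metabolites to the enzymes inside. TGFβ is a secreted factor that acts through SMAD transcription factors, and in NMuMG cells it starts an epithelial to mesenchymal transition. Of the 176 members, 4 bear the name but are no transporters (Slc4a1ap, Slc7a6os, Slc9a3r1 and Slc9a3r2) and are left out of the counts by subfamily.

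Total counts ranged from 14705886 to 23786993 per library. Levels are given as CPM scaled by TMM factors, which lay between 0.961 and 1.07, or, between genes, as RPKM, the same value per kilobase of exon. The epithelial genes Cdh1, Krt8, Krt18 and Krt19 each lay between 337 and 6240 CPM in every library, whereas Epcam lay between 0.127 and 0.697 CPM. The leukocyte markers Ptprc and Cd3e, the endothelial markers Pecam1 and Kdr and the adipocyte markers Adipoq, Plin1 and Fabp4 were each at or below 0.255 CPM in every library. Of the other markers in these lists, Cd14 lay between 102 and 173 CPM, Cd68 lay between 4.14 and 6.56 CPM, and the endothelial Cdh5 had 0.0588 and 0.127 CPM with vehicle, against 1.70 and 1.85 CPM at 12 h. The 5 epithelial genes summed to 5780 and 4960 CPM with vehicle, against 10300 and 10400 CPM at 12 h, with Krt8 and Krt18 higher (log2FC 1.63 and 1.53), Krt19 lower (-1.95) and Cdh1 not called (-0.07). The 6 mesenchymal genes, mostly Vim, summed to 1820 and 1990 CPM with vehicle, against 2950 and 3230 CPM at 12 h, and the part of these lists in the members' differences was not tested.

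Promoters of members that rose together at 2 h, with a member that fell, are shown because SMAD proteins and the AP-1 and E-box-binding factors downstream of TGFβ act on short DNA elements. The sequences are the 250 bases before the annotated start, on the strand of the gene, from build NCBIM37. The 4 shown were picked among the members called at 2 h because they hold an E-box match, so that they share one is no result. Capitals mark CAGAC, the core SMAD element, and CACCTG, an E-box, on either strand.

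Slc7a6 (chr8:108692525-108692774, plus strand, higher at 2 h and 12 h): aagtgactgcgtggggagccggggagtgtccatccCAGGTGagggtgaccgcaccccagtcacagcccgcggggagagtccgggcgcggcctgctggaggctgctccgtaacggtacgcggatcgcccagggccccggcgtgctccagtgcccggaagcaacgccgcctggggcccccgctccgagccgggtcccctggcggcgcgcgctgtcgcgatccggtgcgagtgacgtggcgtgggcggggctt
Slc6a8 (chrX:70918239-70918488, plus strand, higher at 2 h and 12 h): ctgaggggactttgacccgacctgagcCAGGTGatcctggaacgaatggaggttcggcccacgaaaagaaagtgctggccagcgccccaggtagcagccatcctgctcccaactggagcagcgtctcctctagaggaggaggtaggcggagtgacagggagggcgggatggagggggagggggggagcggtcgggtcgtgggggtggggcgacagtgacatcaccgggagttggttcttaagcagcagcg
Slc35e4 (chr11:3814668-3814917, minus strand, higher at 2 h and 12 h): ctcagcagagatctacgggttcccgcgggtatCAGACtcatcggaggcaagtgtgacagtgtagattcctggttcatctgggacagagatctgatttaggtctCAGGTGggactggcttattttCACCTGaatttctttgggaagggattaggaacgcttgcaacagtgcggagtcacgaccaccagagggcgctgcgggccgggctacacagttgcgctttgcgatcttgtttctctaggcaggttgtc
Slc26a11 (chr11:119216621-119216870, plus strand, lower at 2 h and 12 h): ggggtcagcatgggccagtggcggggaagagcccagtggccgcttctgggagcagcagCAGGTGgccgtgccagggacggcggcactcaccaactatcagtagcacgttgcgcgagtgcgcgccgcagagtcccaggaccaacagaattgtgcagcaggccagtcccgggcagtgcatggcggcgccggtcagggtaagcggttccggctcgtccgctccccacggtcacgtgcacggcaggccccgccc

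An E-box letter match lay 215 bases before the start of Slc7a6, 223 bases before that of Slc6a8, 147 and 126 bases before that of Slc35e4 and 192 bases before that of Slc26a11. Slc35e4 also held a CAGAC match 218 bases before the start. Over the 176 members, 34 windows (19.3%) held CACCTG, 71 (40.3%) held CAGAC and 7 (3.98%) held TGANTCA, the AP-1 element. Over all 10725 genes tested with a start site the shares were 14.8%, 40.2% and 4.21%, so the members lay close to all genes for 2 of the 3 motifs, CAGAC and the AP-1 element. The E-box was held by 5 of the 17 members higher at 2 h, 6 of the 14 lower and 23 of the 145 that were not called at 2 h. CAGAC was held by 9, 6 and 56 of these groups. By the calls at 12 h, the E-box was held by 9 of 45 members higher, 13 of 55 lower and 12 of 76 not called. Neither split of the E-box was tested, and the groups called at 2 h are small. TGANTCA was held by none of the 31 members called at 2 h and by 7 of the 145 not called. With a share of 4.21% over all genes, 31 windows are too few to show a lack of it. Sites outside these windows were not searched. Each motif was searched on both strands, whether or not it overlapped another, and a match is a description of the letters only.

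After 2 h of TGFβ1, 31 of 176 members (17.6%) passed an adjusted p under 0.05 in edgeR's quasi-likelihood test, 17 higher and 14 lower than with vehicle, beside 15.2% of the 11080 genes tested. Higher calls made up 9.91% and lower calls 5.25% of all genes tested. With an absolute log2 fold change (log2FC) above 1 as well, 10 members were higher and 4 lower, beside 4.23% of all genes higher, 2.01% lower and 6.25% in either direction. That count of 14 was 8 without vehicle replicate 1 and 9 without vehicle replicate 2, and with total counts in place of TMM factors its split was 7 higher and 6 lower. Without the 4 members that passed the level filter through a single group, 16 were higher and 13 lower. This count still holds members such as Slc30a3, Slc11a1 and Slc4a11, which passed through the treated libraries only. The median log2FC was -0.02 over members and -0.01 over all genes tested. The 2 h count fell to 11 without vehicle replicate 1, 12 without vehicle replicate 2, 22 without the 2 h replicate 2 and 17 without either 12 h library, and was 37 without the 2 h replicate 1. Calls that remained in all 6 of these fits included those of Slc6a8, Slc7a6, Slc35e4, Slc25a25, Slc25a33, Slc23a2 and Slc26a2. That of Slc17a9 also remained, but Slc17a9 entered through its vehicle level, so a lower level after TGFβ1 was built in.

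At 12 h, 100 members (56.8%) differed from vehicle, 45 higher and 55 lower, beside 43.3% of all genes tested. Of all genes tested 21.8% were higher and 21.5% lower at 12 h. An absolute log2FC above 1 was reached by 20 of the higher and 27 of the lower members, beside 8.03% of all genes higher, 11.6% lower and 19.6% in either direction. The median log2FC was -0.13 over members and 0.02 over all genes tested. With total counts in place of TMM factors the median of all genes tested moved to -0.12 at 2 h and -0.11 at 12 h, and that of the members to -0.13 and -0.26, so a list median nearer to 0 than this shift has no set direction. Leaving out vehicle replicate 1, vehicle replicate 2, the 12 h replicate 1 or the 12 h replicate 2 left 69, 76, 66 and 62 members called. Calls of 57 members remained in all 6 fits, 24 higher and 33 lower. Between 2 h and 12 h, 81 members differed (46%), 32 higher and 49 lower at 12 h, beside 34.1% of all genes tested (15.2% higher and 18.9% lower), and 32 of these calls remained in all 6 fits. Without the 12 h replicate 1 or 2 that count was 37 or 40. An absolute log2FC above 1 was reached by 12 higher and 26 lower members between the times, beside 4.5% of all genes higher, 9.87% lower and 14.4% in either direction.

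The 2 times are described by each member's own comparison with the same vehicle libraries. Both times were called higher for 12 members (6.82%, beside 7.86% of all genes tested) and lower for 10 (5.68%, beside 3.27%). A call at 12 h alone was made for 33 members that were higher (18.8%, beside 13.8%) and 43 that were lower (24.4%, beside 17.9%). Slc23a2, Slc25a33 and Slc25a37 were higher at 2 h only (1.7%, beside 1.68%), and 4 members were lower at 2 h only (2.27%, beside 1.89%). Slc7a7 and Slc43a2 turned from higher at 2 h to lower at 12 h (1.14%, beside 0.37%). No member turned the opposite way, and 60 members were called in none of the 3 comparisons.

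The summed level of all members was 13881 and 13252 CPM with vehicle, 14488 and 13319 CPM at 2 h, then 11441 and 11469 CPM at 12 h. Both 12 h libraries lay below the other 4. The mean sum at 12 h differed from that with vehicle by -2112 CPM. This is the net of -4111 CPM over the 97 members with a lower mean at 12 h and 1999 CPM over the 79 with a higher mean. Of the lower side, Slc39a10, Slc5a3, Slc12a2, Slc12a7 and Slc26a2 made up -1961 CPM. Of the higher side, Slc6a8, Slc7a6, Slc44a1, Slc25a24 and Slc35e4 made up 948 CPM, though Slc25a24 was not called at 2 h or 12 h. By class the ratio of the sum at 12 h to that with vehicle was 0.364 for organic cation and anion transporters and 0.388 for the sugar subfamilies, but single abundant genes carried much of both, since the ratio was 0.914 without Slc22a23 and 0.7 without Slc5a3. For amino acid transporters the ratio was 1.45 at 2 h and 1.26 at 12 h, and 1.71 and 1.55 without the abundant Slc6a6. Single genes carried this rise too. The means of Slc6a8 and Slc7a6 at 12 h lay 340 and 230 CPM above vehicle, together more than the rise of the class sum. That sum was 1804 and 1762 CPM with vehicle, against 2213 and 2271 CPM at 12 h.

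**Figure D1:**
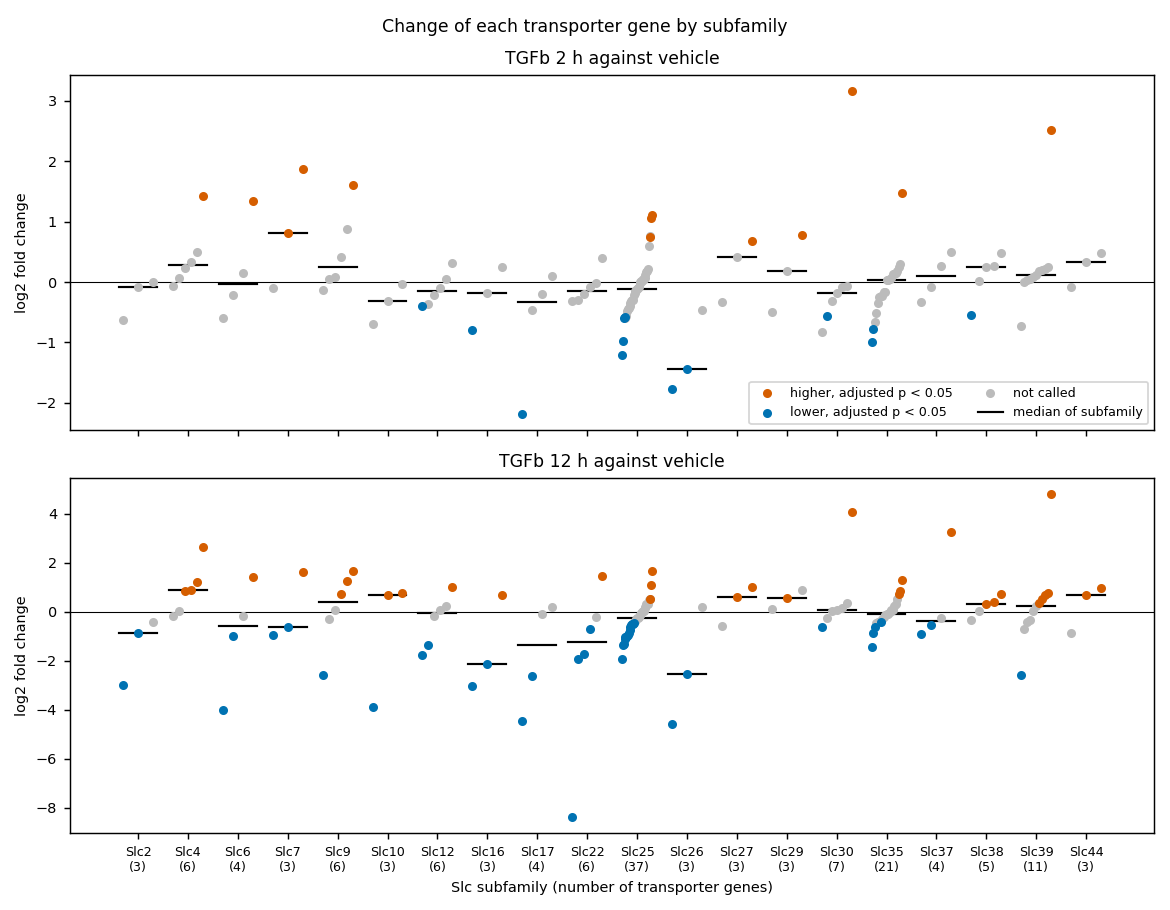
Log2 fold change of each transporter gene against vehicle at 2 h (top) and 12 h (bottom), for subfamilies with at least 3 members, whose number is given under each name. Each point is a gene, orange where called higher, blue where called lower and grey where not called, and the bar is the median of the subfamily, which for Slc26 was -1.43 at 2 h and -2.54 at 12 h.

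Classes were put together by subfamily, so a class can hold members with another substrate. Among the 17 members of the amino acid and peptide subfamilies, 4 were higher and 1 lower at 2 h (29.4%, beside 15.2% of all genes tested). At 12 h 5 were higher and 7 lower (70.6%, beside 43.3%). Their median log2FC was 0.09 at 2 h and -0.22 at 12 h. Slc7a6 (Entrez 330836), the light chain of an exchanger of cationic for neutral amino acids, had 106 and 117 CPM with vehicle, 433 and 378 CPM at 2 h, then 352 and 331 CPM at 12 h. All 4 treated libraries lay above both vehicle libraries. Its log2FC was 1.86 at 2 h (SE 0.118, adjusted p = 0.000386) and 1.61 at 12 h (SE 0.117, adjusted p = 0.000144). The creatine transporter Slc6a8 (Entrez 102857) had 223 and 190 CPM with vehicle, 545 and 499.5 CPM at 2 h, then 537 and 556 CPM at 12 h, again with no overlap. Its log2FC was 1.34 at 2 h (SE 0.119, adjusted p = 0.00113) and 1.40 at 12 h (adjusted p = 0.000242). Per kilobase Slc6a8 rose from 39.6 RPKM with vehicle to 105 RPKM at 12 h and Slc7a6 from 29.9 to 91.5 RPKM. The taurine transporter Slc6a6 had the highest mean level of this class, 128.6 RPKM, and was not called at either time.

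Slc7a7, the close relative of Slc7a6 that forms the same kind of exchanger, had 42.1 and 35.8 CPM with vehicle, 69.7 and 66.2 CPM at 2 h, then 26.4 and 23.9 CPM at 12 h. Slc43a2, a carrier of large neutral amino acids, had 49.9 and 47.6 CPM with vehicle, 70.5 and 73.9 CPM at 2 h, then 17.1 and 17.0 CPM at 12 h. In both genes the 2 h libraries were the highest and the 12 h libraries the lowest, without overlap. The log2FC of Slc7a7 was 0.80 at 2 h (adjusted p = 0.00782) and -0.63 at 12 h (adjusted p = 0.00728), and 12 h lay below 2 h by -1.43 (adjusted p = 0.000579). For Slc43a2 the log2FC was 0.57 at 2 h (adjusted p = 0.0124), -1.52 at 12 h (adjusted p = 0.000116) and -2.08 between 12 h and 2 h (adjusted p = 0.000135). The rise of Slc7a7 at 2 h missed the threshold without vehicle replicate 2 (adjusted p = 0.0592), and that of Slc43a2 without vehicle replicate 1 (0.075) or 2 (0.0954). The fall of Slc7a7 at 12 h missed it without vehicle replicate 1 (0.0504) or the 12 h replicate 2 (0.0625), and that of Slc43a2 was called in all 6 fits.

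The neutral amino acid transporter of kidney and gut brush borders, Slc6a19, had 10.4 and 11.1 CPM with vehicle, 7.94 and 6.25 CPM at 2 h, then 0.653 and 0.667 CPM at 12 h. Its log2FC at 12 h was -4.02 (SE 0.248, adjusted p = 8.45e-05), and at 2 h it was -0.60 (adjusted p = 0.0964). The glycine transporter Slc6a9 fell by 0.997 on the log2 scale at 12 h (adjusted p = 0.00181). In the Slc38 subfamily of sodium-coupled neutral amino acid transporters, Slc38a10, Slc38a6 and Slc38a7 were higher at 12 h, by 0.32, 0.73 and 0.40 on the log2 scale, and none of these 3 calls remained in all 6 fits without a library (highest adjusted p 0.259, 0.169 and 0.221). Slc38a9, which reports lysosomal arginine to the growth regulator mTORC1, was lower at 2 h by a log2FC of -0.55 (adjusted p = 0.0363), up to 0.218 without a library.

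**Figure D2:**
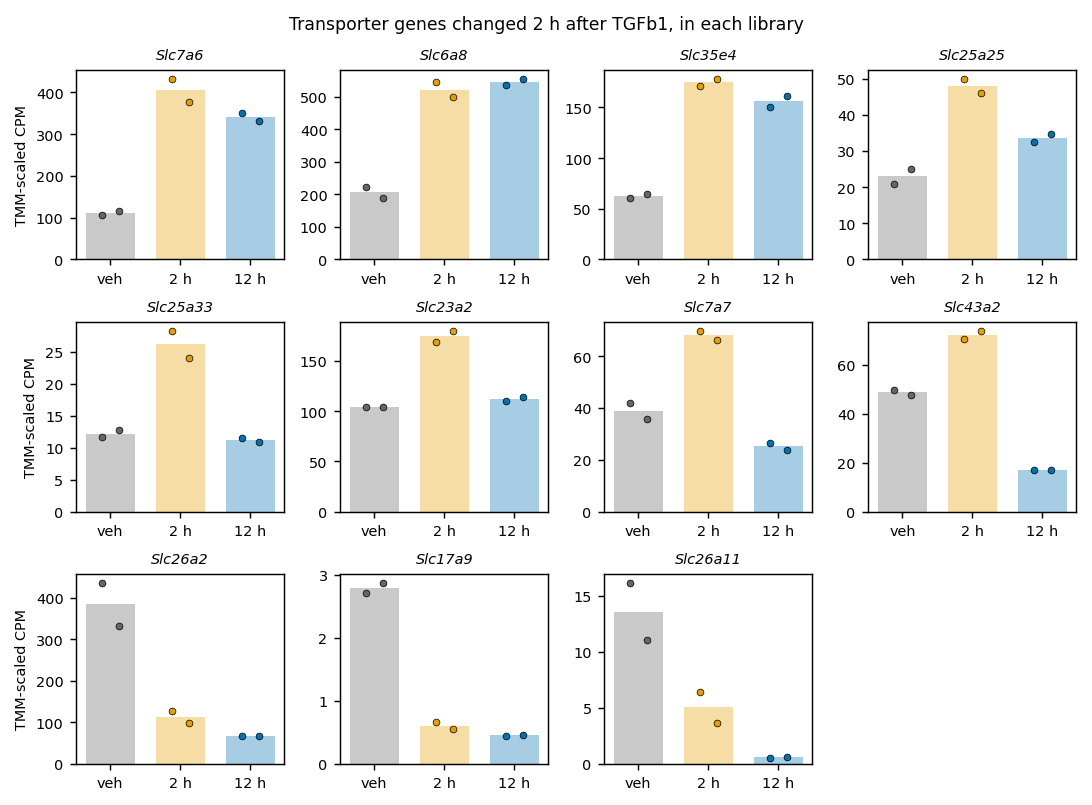
TMM-scaled CPM of 11 transporter genes called at 2 h, in vehicle, 2 h and 12 h libraries. Points are the 2 libraries of a group and bars their mean, on axes that start at 0. Slc7a6, Slc6a8 and Slc35e4 stayed high at 12 h, Slc25a33 and Slc23a2 were back near vehicle, and Slc7a7 and Slc43a2 lay below it.

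Of 23 exchangers and cotransporters of ions and protons, 2 were higher and 3 lower at 2 h (21.7%, beside 15.2% of all genes tested). At 12 h 9 were higher and 5 lower (60.9%, beside 43.3%). The medians were 0.05 and 0.08 on the log2 scale. In the bicarbonate subfamily Slc4, 4 of 6 members were higher at 12 h and none lower, with a median of 0.88. Among sodium/proton exchangers of subfamily Slc9, 3 of 6 were higher and 1 lower. The anion exchangers of subfamily Slc26 had 2 of 3 members lower at both times.

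Slc9a5 rose at 12 h, from 9.94 and 15.8 CPM with vehicle to 39.1 and 43.8 CPM at 12 h (log2FC 1.69, SE 0.316, adjusted p = 0.00573), with 12.5 and 21.9 CPM at 2 h. Slc9a9, the exchanger of endosomes, had 4.29 and 6.24 CPM with vehicle, 5.56 and 5.34 CPM at 2 h, then 0.697 and 1.08 CPM at 12 h, a log2FC of -2.57 at 12 h (SE 0.328, adjusted p = 0.00117). Slc9a2 was higher at 12 h (log2FC 1.27, adjusted p = 0.0101), with adjusted p of 0.0585 without vehicle replicate 2, 0.0558 without the 12 h replicate 1 and 0.0629 without the 12 h replicate 2. Slc9a3r1 and Slc9a3r2, named for their link to an exchanger, encode scaffold proteins that hold transporters at the apical membrane, and fell at 12 h by 0.73 and 0.85 on the log2 scale (adjusted p = 0.002 and 0.00276).

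Slc4a11 had 1.29 and 1.46 CPM with vehicle, 4.35 and 3.08 CPM at 2 h, then 9.71 and 7.44 CPM at 12 h, 3 groups that did not overlap. Its log2FC was 1.43 at 2 h (SE 0.297, adjusted p = 0.0237) and 2.63 at 12 h (SE 0.291, adjusted p = 0.000655). The 2 h call remained in 1 of the 6 fits with a library left out, that without the 2 h replicate 2, and elsewhere its adjusted p was 0.138 and 0.0983 without vehicle replicates 1 and 2, 0.0543 without the 2 h replicate 1 and 0.0607 and 0.0583 without the 12 h replicates. The sodium bicarbonate cotransporter Slc4a4 had 65.9 and 58.6 CPM with vehicle, 67.9 and 62.4 CPM at 2 h, then 124 and 107 CPM at 12 h. It was called at 12 h (log2FC 0.89, SE 0.122, adjusted p = 0.00156). Slc4a3 and Slc4a8 were higher at 12 h by 0.86 and 1.23, and neither call remained in all 6 fits (highest adjusted p 0.0677 and 0.0716). The chloride/bicarbonate exchanger Slc4a2 was by far the most abundant of the subfamily per kilobase, with a mean of 74.3 RPKM over the 6 libraries. It had 425 and 452 CPM with vehicle, 548 and 555 CPM at 2 h, then 384 and 399 CPM at 12 h, and 12 h lay below 2 h (log2FC -0.50, adjusted p = 0.00908). Against vehicle Slc4a2 was not called at 2 h (log2FC 0.33, adjusted p = 0.0653) or 12 h (log2FC -0.16, adjusted p = 0.214).

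The cation-chloride cotransporters of subfamily Slc12 set cell volume and chloride. Slc12a2, which takes up sodium, potassium and chloride, had 659 and 577 CPM with vehicle, 567 and 395 CPM at 2 h, then 269 and 211 CPM at 12 h. Both 12 h libraries lay below the other 4, with a log2FC of -1.36 (SE 0.206, adjusted p = 0.00241). Slc12a7 (Entrez 20499), a potassium chloride exporter, had 499 and 484 CPM with vehicle, 379 and 366 CPM at 2 h, then 141 and 151 CPM at 12 h, with no overlap among the 3 groups. It fell by 1.75 on the log2 scale at 12 h (SE 0.0988, adjusted p = 6.19e-05). At 2 h its log2FC was -0.40 (adjusted p = 0.0371, up to 0.196 without a library). The related exporter Slc12a4 went the other way, from 46.5 and 54.2 CPM with vehicle through 61.0 and 64.1 CPM at 2 h to 99.7 and 105 CPM at 12 h. Its log2FC at 12 h was 1.03 (SE 0.113, adjusted p = 0.000645). Per kilobase Slc12a7 was at 85.5 RPKM with vehicle and 25.4 RPKM at 12 h, and Slc12a4 was at 11.8 and 24.1 RPKM.

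The sulfate transporter Slc26a2, which feeds the sulfation of proteoglycans, had 435 and 333 CPM with vehicle, 126 and 99.3 CPM at 2 h, then 65.9 and 65.8 CPM at 12 h. All 3 groups were separate. Its log2FC was -1.77 at 2 h (SE 0.173, adjusted p = 0.00155) and -2.54 at 12 h (SE 0.179, adjusted p = 0.000132). Slc26a11, an anion transporter, had 16.1 and 11.0 CPM with vehicle, 6.42 and 3.63 CPM at 2 h, then 0.522 and 0.616 CPM at 12 h. Its log2FC was -1.43 at 2 h (adjusted p = 0.0311) and -4.57 at 12 h (SE 0.407, adjusted p = 0.000284). At 2 h the call of Slc26a11 remained in 1 of 6 fits without a library, and the highest adjusted p was 0.171. Slc26a6 was called at neither time (log2FC -0.46 and 0.19). The sodium/calcium exchanger Slc24a3 was higher at 12 h, with 9.32 and 14.4 CPM, beside 3.84 and 4.69 CPM at 2 h, and 4.24 and 4.58 CPM with vehicle (log2FC 1.43, SE 0.266, adjusted p = 0.00561).

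**Figure D3:**
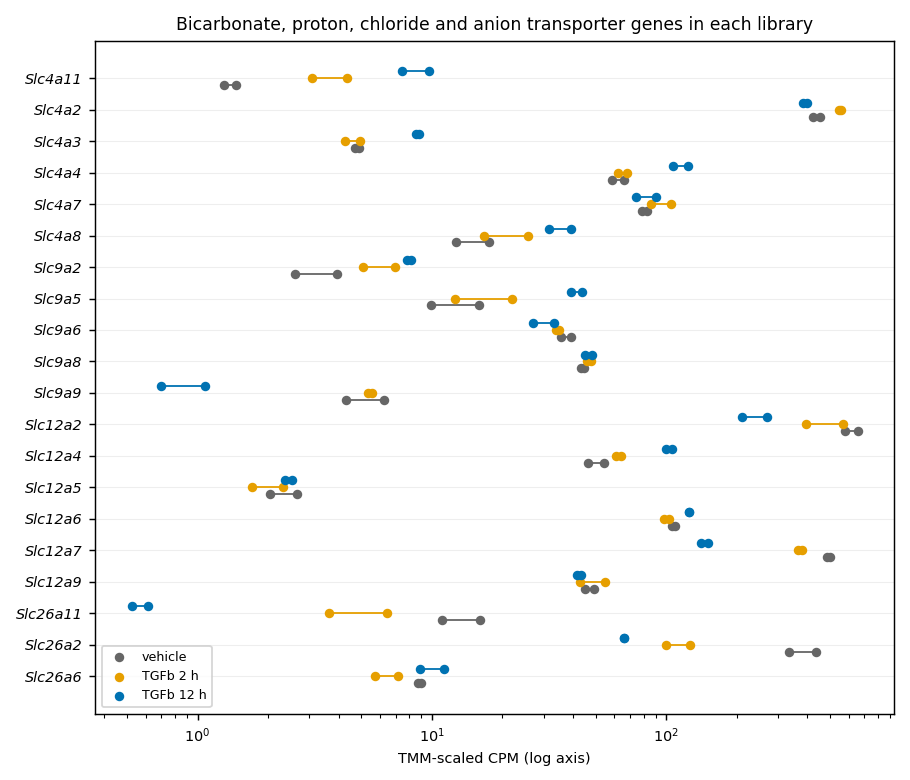
TMM-scaled CPM of bicarbonate (Slc4), sodium/proton (Slc9), cation-chloride (Slc12) and anion (Slc26) transporter genes in each library, on a log axis. Each point is a library and the line joins the 2 libraries of a group. Slc26a2, Slc26a11 and Slc12a7 were lower at each later time, and Slc4a11 rose at 12 h to 9.71 and 7.44 CPM.

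Of 26 metal transporters, 3 were higher and 1 lower at 2 h (15.4%, beside 15.2% of all genes tested). At 12 h 9 were higher and 4 lower (50%, beside 43.3%). Slc30 proteins move zinc out of the cytosol, into vesicles or out of the cell, and Slc39 proteins move it in. Slc39a10 (Entrez 227059), a zinc importer of the plasma membrane, had 696 and 580 CPM with vehicle, 467.5 and 302 CPM at 2 h, then 97.1 and 119 CPM at 12 h. The 3 groups did not overlap. Its log2FC was -0.73 at 2 h (SE 0.224, adjusted p = 0.0785) and -2.56 at 12 h (SE 0.237, adjusted p = 0.000322). Slc39a10 was at 107 RPKM with vehicle, the highest of the zinc transporters there, and at 18.2 RPKM at 12 h. The other Slc39 calls at 12 h were higher, in Slc39a1, Slc39a2, Slc39a6, Slc39a7 and Slc39a13.

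Slc39a7, which releases zinc from the endoplasmic reticulum, had 209 and 203 CPM with vehicle, 239 and 250.3 CPM at 2 h, then 282 and 306 CPM at 12 h. It rose by a log2FC of 0.52 at 12 h (SE 0.0981, adjusted p = 0.00602, or 0.0593 without the 12 h replicate 2), and with 114 RPKM it was the highest zinc transporter there. Slc39a6 had 21.9 and 22.6 CPM with vehicle, 27.4 and 23.3 CPM at 2 h, then 40.4 and 36.3 CPM at 12 h (log2FC at 12 h 0.79, SE 0.135, adjusted p = 0.00399). Slc39a13, a zinc transporter of the secretory pathway, was higher by 0.69 and Slc39a1 by 0.36, with highest adjusted p of 0.101 and 0.199 without a library. Slc39a2 had 0.0588 and 0.127 CPM with vehicle, 0.455 and 0.655 CPM at 2 h, then 2.79 and 2.77 CPM at 12 h. Slc39a2 entered through its 12 h level, so a higher level at 12 h was built in. Both vehicle libraries together held 3 counts of Slc39a2. The ratio to vehicle was 6.05 at 2 h (95% exact counting interval 1.82 to 31.6) and 30.3 at 12 h (10.1 to 149). These intervals cover counting error only. The 2 h call of Slc39a2 remained in 1 of 6 fits without a library, with an adjusted p of up to 0.213. Slc39a2 shares 151 bases with Mettl17 on the same strand. In Slc39a4, replicate 1 was above replicate 2 in each group, with 83.4 and 41.9 CPM in vehicle, and its log2FC at 12 h was -0.70 (adjusted p = 0.294). With the replicate number as a block it was -0.65 (SE 0.154, adjusted p = 0.00608), so the call depends on whether the libraries are paired.

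Slc30a3, which loads zinc into vesicles, had 0.294 and 0.127 CPM with vehicle, 1.57 and 2.37 CPM at 2 h, then 3.004 and 4.36 CPM at 12 h. All 4 treated libraries lay above both vehicle libraries. Its log2FC was 3.17 at 2 h (SE 0.525, adjusted p = 0.0103, or 0.0674 without vehicle replicate 2) and 4.06 at 12 h (SE 0.501, adjusted p = 0.00103). The level remained low per kilobase, at 1.76 RPKM at 12 h. Slc30a4, the most abundant of the subfamily in CPM, had 217 and 234 CPM with vehicle, 168 and 139 CPM at 2 h, then 159 and 133 CPM at 12 h. Its log2FC was -0.56 at 2 h (adjusted p = 0.0443, up to 0.184 without a library) and -0.63 at 12 h (adjusted p = 0.012, or 0.0647 without vehicle replicate 2 and 0.094 without the 12 h replicate 2). The other 5 members of Slc30 were not called at either time, with log2FC at 12 h between -0.25 and 0.38.

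**Figure D4:**
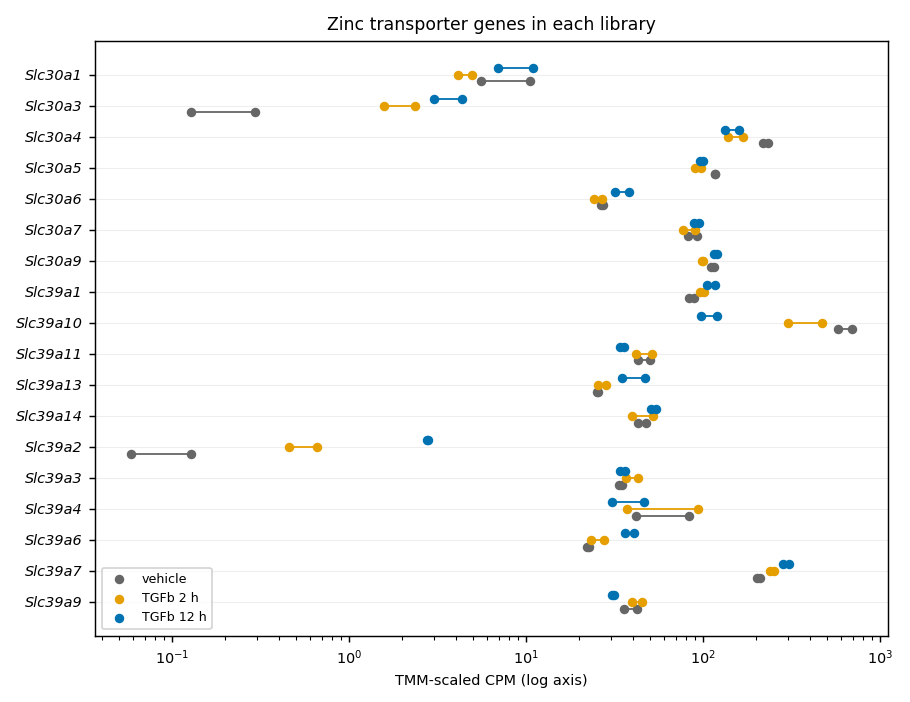
TMM-scaled CPM of the zinc exporter (Slc30) and importer (Slc39) genes in each library, on a log axis. Each point is a library and the line joins the 2 libraries of a group. Slc39a10 fell from 696 and 580 CPM to 97.1 and 119 CPM, and Slc30a3 and Slc39a2 rose from 0.294 CPM or less. Slc39a2 entered through its 12 h level.

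Among the other metal transporters, the iron exporter Slc40a1 had 296 and 177 CPM with vehicle, 282 and 193 CPM at 2 h, then 109 and 96.4 CPM at 12 h. Its log2FC at 12 h was -1.20 (SE 0.275, adjusted p = 0.0126), with 0.0522 without vehicle replicate 1, 0.0701 without the 12 h replicate 1 and 0.0993 without the 12 h replicate 2. The heme transporter Slc48a1 had 73.5 and 71.6 CPM with vehicle, 66.6 and 66.3 CPM at 2 h, then 45.4 and 46.0 CPM at 12 h, and fell by 0.67 on the log2 scale at 12 h (SE 0.0924, adjusted p = 0.00169). The magnesium transporter Slc41a1 rose from 22.4 and 24.3 CPM with vehicle to 40.8 and 44.7 CPM at 12 h (log2FC 0.87, SE 0.12, adjusted p = 0.00164). Slc11a1, a metal transporter of phagosomes, had 0.824 and 0.573 CPM with vehicle, 1.72 and 2.17 CPM at 2 h, then 2.05 and 2.87 CPM at 12 h. Its log2FC was 1.46 at 2 h (adjusted p = 0.0464, up to 0.208 without a library) and 1.80 at 12 h (adjusted p = 0.00842, or 0.0558 without vehicle replicate 2 and 0.0598 without the 12 h replicate 2). The related Slc11a2 was called at neither time (log2FC -0.10 and -0.07), nor were the copper transporters Slc31a1 and Slc31a2.

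The mitochondrial carriers of subfamily Slc25 were the largest group, with 37 members. At 2 h 3 were higher and 4 lower (18.9%, beside 15.2% of all genes tested). At 12 h 3 were higher and 15 lower (48.6%, beside 43.3%). The medians were -0.11 and -0.27 on the log2 scale. In the 6 fits with a library left out, 1 of the higher and 7 of the lower calls at 12 h remained throughout. The dicarboxylate carrier Slc25a10 (Entrez 27376) had 133 and 166 CPM with vehicle, 140 and 185 CPM at 2 h, then 37.4 and 40.6 CPM at 12 h. The 2 h and vehicle libraries overlapped and both 12 h libraries lay below them. Its log2FC at 12 h was -1.94 (SE 0.177, adjusted p = 0.000309).

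The aspartate/glutamate carriers Slc25a12 and Slc25a13, which bring reducing equivalents into the mitochondrion, fell at 12 h by 0.94 and 1.34 on the log2 scale (adjusted p = 0.00225 and 0.00294). Slc25a12 had 66.3 and 67.5 CPM with vehicle, against 30.3 and 39.4 CPM at 12 h. The oxoglutarate carrier Slc25a11 of the same shuttle had 175 and 172 CPM with vehicle, against 120 and 130 CPM at 12 h, a log2FC of -0.48 (adjusted p = 0.00728, or 0.0592 without the 12 h replicate 1). The ADP/ATP carriers were among the most abundant members per kilobase. Slc25a4 had the highest mean of all, and fell from 155 RPKM with vehicle to 105 RPKM at 12 h (log2FC -0.55, adjusted p = 0.00787, or 0.0525 without vehicle replicate 2 and 0.0607 without the 12 h replicate 1). Slc25a5 had 165 and 213 CPM with vehicle, 160 and 232 CPM at 2 h, then 84.1 and 101 CPM at 12 h (log2FC -1.03, adjusted p = 0.00915, or 0.0728 without the 12 h replicate 1). The phosphate carrier Slc25a3, the most abundant of the subfamily in CPM, and the citrate carrier Slc25a1 were called at neither time, with log2FC at 12 h of -0.06 and 0.05.

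Slc25a39, a carrier required for mitochondrial glutathione, had 329 and 369 CPM with vehicle, 355 and 352 CPM at 2 h, then 198 and 222 CPM at 12 h (log2FC -0.73, SE 0.111, adjusted p = 0.00241). Of the paralogue Slc25a40 there were 8.88 and 8.79 CPM with vehicle, 5.31 and 3.68 CPM at 2 h, then 9.75 and 8.21 CPM at 12 h. It was lower at 2 h (log2FC -0.97, adjusted p = 0.0368, up to 0.151 without a library) and not called at 12 h (log2FC 0.02). The glutamate carrier Slc25a22 was the member of the subfamily that rose most at 12 h. It had 7.53 and 12.4 CPM with vehicle, 14.6 and 15.4 CPM at 2 h, then 31.3 and 32.9 CPM at 12 h, a log2FC of 1.69 (SE 0.234, adjusted p = 0.00168).

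The 3 carriers higher at 2 h are known to move nucleotides or iron. Slc25a33, a pyrimidine nucleotide carrier, had 11.6 and 12.7 CPM with vehicle, 28.3 and 24.1 CPM at 2 h, then 11.4 and 10.8 CPM at 12 h. Its log2FC was 1.11 at 2 h (SE 0.152, adjusted p = 0.00517), and 12 h lay below 2 h (log2FC -1.23, adjusted p = 0.00176). Slc25a36, the other pyrimidine nucleotide carrier, was lower at 2 h, with 53.0 and 29.2 CPM beside 108 and 81.4 CPM with vehicle (log2FC -1.20, adjusted p = 0.0446, up to 0.197 without a library). Slc25a25, a calcium-regulated carrier of ATP-Mg and phosphate, had 20.9 and 25.1 CPM with vehicle, a mean of 48.04 ± 2.78 CPM (SD, n = 2) at 2 h and 32.4 and 34.7 CPM at 12 h, which put the 12 h libraries between the other groups. Its log2FC was 1.06 at 2 h (SE 0.133, adjusted p = 0.0037) and 0.55 at 12 h (adjusted p = 0.016). At 12 h that call was lost without vehicle replicate 1 (0.103) or the 12 h replicate 1 (0.0697) or 2 (0.109). Its relatives of the same type, Slc25a23 and Slc25a24, were not called at 2 h, and Slc25a23 was lower at 12 h (log2FC -1.31, adjusted p = 0.012), with 0.0626 without vehicle replicate 2, 0.0835 without the 12 h replicate 1 and 0.0671 without the 12 h replicate 2. The iron carrier Slc25a37 was higher at 2 h (log2FC 0.74, adjusted p = 0.024, up to 0.129 without a library) and its counterpart Slc25a28 was called at neither time.

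**Figure D5:**
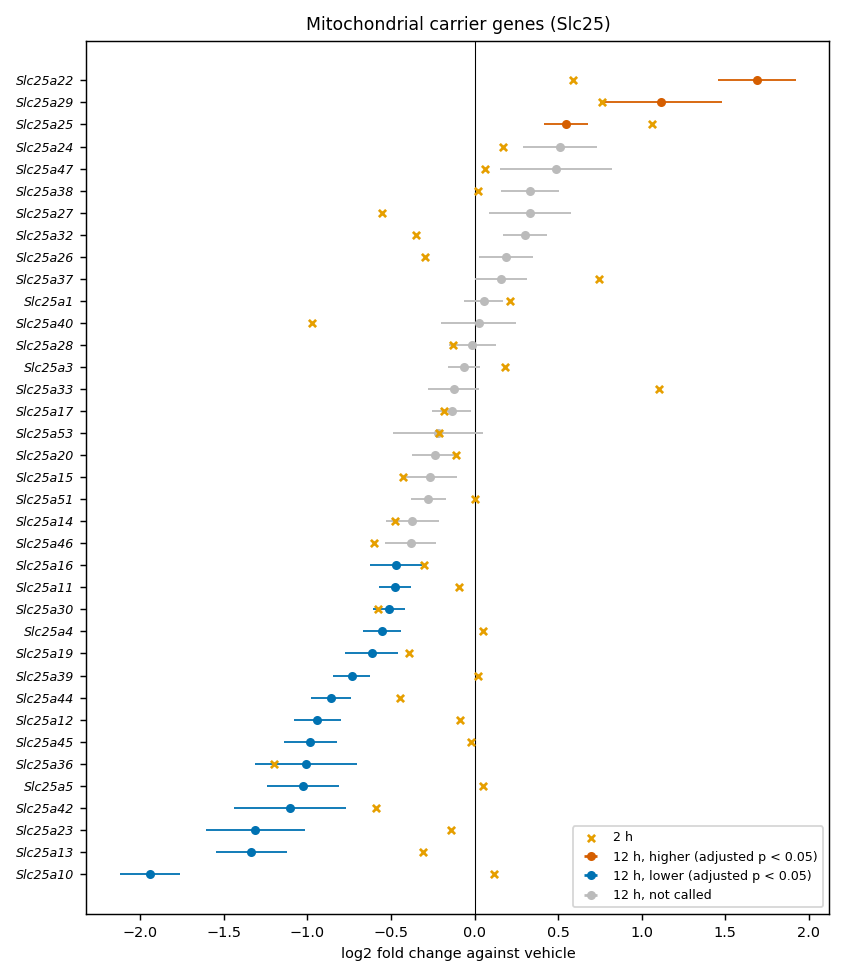
Log2 fold change of the 37 mitochondrial carrier genes at 12 h against vehicle, ordered by value, with the standard error of the fit as a bar, and at 2 h as a cross. Orange and blue points were called higher and lower at 12 h and grey points were not called. The crosses of Slc25a33, Slc25a25 and Slc25a37 lie to the right of their 12 h points, and that of Slc25a10, at 0.11, lies far to the right of -1.94.

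Members of Slc35 carry nucleotide sugars and related molecules into the Golgi apparatus and endoplasmic reticulum. Of 21 members, 1 was higher and 2 lower at 2 h (14.3%, beside 15.2% of all genes tested). At 12 h 3 were higher and 4 lower (33.3%, beside 43.3%). Slc35e4 had 60.8 and 64.6 CPM with vehicle, 171 and 178 CPM at 2 h, then 151 and 161 CPM at 12 h. All 4 treated libraries lay above vehicle. Its log2FC was 1.48 at 2 h (SE 0.1, adjusted p = 0.000489) and 1.32 at 12 h (adjusted p = 0.000165). Slc35b1 and Slc35b4 rose at 12 h by 0.72 and 0.84 on the log2 scale (adjusted p = 0.0027 and 0.00142). Slc35g1 had 45.1 and 53.0 CPM with vehicle, 41.6 and 42.2 CPM at 2 h, then 19.2 and 17.5 CPM at 12 h (log2FC -1.42, SE 0.129, adjusted p = 0.000306). Slc35d2 was lower at 2 h only, with 21.2 and 18.97 CPM with vehicle, 10.8 and 9.38 CPM at 2 h, then 16.5 and 16.1 CPM at 12 h (log2FC at 2 h -0.997, adjusted p = 0.00759, or 0.0602 without vehicle replicate 1). The other 12 h calls, Slc35a5, Slc35f2 and Slc35f5, were lower and did not remain in all 6 fits, with highest adjusted p of 0.074, 0.278 and 0.204.

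In the subfamilies known for sugar transport (Slc2, Slc5, Slc37, Slc45 and Slc50), none of 11 members was higher and 1 lower at 2 h (9.09%, beside 15.2% of all genes tested). At 12 h 1 was higher and 6 lower (63.6%, beside 43.3%), with a median of -0.52. The single 2 h call was Slc5a6, which carries vitamins and no sugar. Slc5a6 had 13.0 and 15.6 CPM with vehicle, 8.19 and 8.22 CPM at 2 h, then 6.75 and 8.82 CPM at 12 h. Its log2FC was -0.80 at 2 h (adjusted p = 0.0405), a call lost in each of the 6 fits without a library, and -0.88 at 12 h (adjusted p = 0.012, or 0.0762 without vehicle replicate 2 and 0.0774 without the 12 h replicate 1). Slc5a3 (Entrez 53881), the sodium-coupled importer of the osmolyte myo-inositol, had 453 and 542 CPM with vehicle, 492 and 429 CPM at 2 h, then 115 and 102 CPM at 12 h. The 2 h libraries overlapped with vehicle and both 12 h libraries lay below. It fell by 2.20 on the log2 scale at 12 h (SE 0.142, adjusted p = 9.74e-05). The glucose transporter of liver and pancreas, Slc2a2, had 5.12 and 4.14 CPM with vehicle, 3.59 and 2.42 CPM at 2 h, then 0.697 and 0.462 CPM at 12 h (log2FC -2.97, SE 0.362, adjusted p = 0.000975). The urate and sugar transporter Slc2a9 fell by 0.86 at 12 h (adjusted p = 0.00444), and the glucose-6-phosphate transporter Slc37a4 by 0.92 (adjusted p = 0.00268). Slc37a2, a sugar phosphate exchanger, was at 0.235 and 0.446 CPM with vehicle, 0.455 and 0.504 CPM at 2 h, then 2.96 and 3.59 CPM at 12 h. It entered through its 12 h level, and its log2FC there was 3.25.

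The subfamilies Slc16, named for monocarboxylates, and Slc10, named for bile acids, had 3 members each. All 6 were called at 12 h, 3 in each direction (100%, beside 43.3% of all genes tested). The higher call of Slc16a13 did not remain in all 6 fits with a library left out, where its log2FC lay between 0.612 and 0.791. The aromatic amino acid transporter Slc16a10 had 103 and 106 CPM with vehicle, 68.3 and 52.0 CPM at 2 h, then 25.2 and 22.7 CPM at 12 h, and the groups did not overlap. Its log2FC was -0.80 at 2 h (adjusted p = 0.0155) and -2.12 at 12 h (SE 0.154, adjusted p = 0.000144). The 2 h call remained in 2 of 6 fits without a library, with an adjusted p of up to 0.0793. Slc16a12, which exports creatine, had 43.8 and 26.6 CPM with vehicle, 41.8 and 20.7 CPM at 2 h, then 4.66 and 4.05 CPM at 12 h (log2FC -3.01, SE 0.406, adjusted p = 0.00149). Slc10a5 had 7.18 and 5.54 CPM with vehicle, 5.71 and 2.17 CPM at 2 h, then 0.348 and 0.513 CPM at 12 h, a log2FC of -3.88 (SE 0.562, adjusted p = 0.00202). Its relatives Slc10a3 and Slc10a7 rose at 12 h by 0.76 and 0.67 on the log2 scale (adjusted p = 0.00438 and 0.00321).

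The phosphate importers Slc20a1 and Slc20a2 were both higher at 12 h. Slc20a1 had 58.4 and 48.1 CPM with vehicle, 89.5 and 74.7 CPM at 2 h, then 117 and 134 CPM at 12 h, 3 groups in steps. Its log2FC at 12 h was 1.24 (SE 0.15, adjusted p = 0.000953), and at 2 h it was 0.63 (adjusted p = 0.0362, up to 0.177 without a library). Slc20a2 had 66.8 and 64.7 CPM with vehicle, 66.8 and 64.5 CPM at 2 h, then 92.3 and 98.2 CPM at 12 h (log2FC 0.53, SE 0.0949, adjusted p = 0.00459).

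The vitamin and choline subfamilies Slc19, Slc23, Slc44, Slc46 and Slc52 do not hold the vitamin carrier Slc5a6. Of their 10 members, 6 were higher and 1 lower at 12 h (70%, beside 43.3% of all genes tested). The median was 0.56 on the log2 scale. The only higher calls that remained in all 6 fits with a library left out were those of the proton-coupled folate transporter Slc46a1 and the choline transporter Slc44a1. Slc46a1 had 9.29 and 7.70 CPM with vehicle, 10.3 and 10.2 CPM at 2 h, then 27.1 and 27.6 CPM at 12 h (log2FC 1.68, SE 0.155, adjusted p = 0.000318). Slc44a1 had 186 and 165 CPM with vehicle, 232 and 208 CPM at 2 h, then 342 and 340.4 CPM at 12 h (log2FC 0.96, SE 0.111, adjusted p = 0.000775). The riboflavin transporter Slc52a3 had 2.94 and 1.27 CPM with vehicle, 3.29 and 4.03 CPM at 2 h, then 7.49 and 8.57 CPM at 12 h (log2FC 1.92, adjusted p = 0.00681, or 0.0517 without the 12 h replicate 2). The ascorbate transporter Slc23a2 was higher at 2 h only, at 169 and 180 CPM beside 110.1 and 114 CPM at 12 h, and 104.0 and 104 CPM with vehicle. Its log2FC at 2 h was 0.75 (SE 0.0938, adjusted p = 0.0037).

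In the organic cation and anion subfamily Slc22, none of 6 members was called at 2 h, beside 15.2% of all genes tested. At 12 h 1 was higher and 4 lower (83.3%, beside 43.3%). Slc22a23, the most abundant, had 273 and 212 CPM with vehicle, 238 and 184 CPM at 2 h, then 64.9 and 62.2 CPM at 12 h (log2FC -1.93, SE 0.176, adjusted p = 0.000307). Slc22a14 had 3.12 and 1.21 CPM with vehicle, 2.38 and 1.16 CPM at 2 h, but 0 counts in both 12 h libraries. Against a floor of 3 counts per library it was at least 15.2-fold lower at 12 h than with vehicle and at least 12.4-fold lower than at 2 h. Slc22a4, which carries ergothioneine, fell by 1.73 (adjusted p = 0.00356), and Slc22a18 by 0.70 (adjusted p = 0.0181), with adjusted p of 0.112 without vehicle replicate 1 and 0.0925 and 0.1 without the 12 h replicates 1 and 2. Slc22a15 rose from 6.24 and 6.24 CPM with vehicle to 15.8 and 18.2 CPM at 12 h (log2FC 1.45, SE 0.162, adjusted p = 0.000697). The carnitine transporter Slc22a5 was not called (log2FC at 12 h -0.19, adjusted p = 0.482).

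Among 6 vesicular and lysosomal carriers, none was higher at either time. The lower calls numbered 1 at 2 h (16.7%, beside 15.2% of all genes tested) and 3 at 12 h (50%, beside 43.3%). Slc17a1, an anion transporter of kidney and liver, had 16.6 and 13.2 CPM with vehicle, 13.5 and 8.27 CPM at 2 h, then 0.697 and 0.667 CPM at 12 h. Its log2FC at 12 h was -4.44 (SE 0.338, adjusted p = 0.000166). The vesicular amine transporter Slc18a1 had 31.9 and 24.8 CPM with vehicle, 26.7 and 19.1 CPM at 2 h, then 4.83 and 4.21 CPM at 12 h (log2FC -2.65, SE 0.233, adjusted p = 0.000278). Slc17a9, which loads ATP into vesicles, had 2.71 and 2.87 CPM with vehicle, 0.657 and 0.555 CPM at 2 h, then 0.435 and 0.462 CPM at 12 h. It entered through its vehicle level, and its log2FC was -2.19 at 2 h and -2.62 at 12 h. The lysosomal sialic acid exporter Slc17a5 was called at neither time (log2FC -0.20 and -0.09).

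The equilibrative nucleoside transporter Slc29a1 had 63.4 and 71.6 CPM with vehicle, 107 and 125 CPM at 2 h, then 100.3 and 99.1 CPM at 12 h. It was higher at 2 h (log2FC 0.78, adjusted p = 0.0076, or 0.0654 without vehicle replicate 1) and at 12 h (log2FC 0.56, adjusted p = 0.00942, or 0.0686 without vehicle replicate 1, 0.062 without the 12 h replicate 1 and 0.0575 without the 12 h replicate 2). The fatty acid transporter Slc27a1 rose from 11.9 and 10.8 CPM with vehicle to 21.3 and 25.0 CPM at 12 h (log2FC 1.03, SE 0.16, adjusted p = 0.00265).

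Of the 176 members, 4 pairs were immediate neighbours on a chromosome, in build NCBIM37. On chr13:23959619-24006876, Slc17a1 (log2FC at 12 h -4.44) lay beside Slc17a4, which was not called (0.22), at 11.5 and 11.7 CPM with vehicle, against 14.1 and 12.9 CPM at 12 h. On chr13:73817193-73954191, Slc6a19 and Slc12a7 were both lower at 12 h (log2FC -4.02 and -1.75). On chr8:108692775-108734833, Slc7a6 was higher (1.61) and Slc7a6os on the other strand was not called (0.11). The last pair, Slc25a29 and Slc25a47, had log2FC of 1.11 and 0.49, and the call of Slc25a29 did not remain without every library (highest adjusted p 0.222).

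Proteins that work with solute carriers were followed in a list of 31 genes, 20 of which were tested. At 2 h 3 were higher and 1 lower (20%, beside 15.2% of all genes tested). At 12 h 4 were higher and 11 lower (75%, beside 43.3%). Atp1b1, a subunit of the sodium pump that maintains the gradient many solute carriers use, was higher at 12 h (log2FC 1.10, adjusted p = 0.0299). The organic anion transporter Slco2a1, a prostaglandin carrier, had 184 and 141 CPM with vehicle, 155 and 116 CPM at 2 h, then 7.92 and 5.90 CPM at 12 h (log2FC -4.55, SE 0.246, adjusted p = 5.47e-05), and Slco3a1 rose at 12 h by 2.27 (adjusted p = 4.95e-05). The zinc-binding metallothioneins Mt1 and Mt2 were lower at 12 h (log2FC -1.59 and -1.95, adjusted p = 0.0342 and 0.0474), as were the iron genes Fth1 (-1.73) and Tfrc (-1.11). At 2 h, replicate 2 held 334 CPM of Mt1 and replicate 1 held 107 CPM. Of the 9 Slc genes that the rule left out, 8 were tested, and at 12 h 2 were higher and 4 lower (75%, beside 43.3% of all genes tested).

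Members differed in how well their replicates matched. The median absolute log2 difference between the 2 libraries of a group was 0.165 with vehicle, 0.23 at 2 h and 0.134 at 12 h, close to 0.152, 0.22 and 0.134 over all genes tested. A difference above 0.5 between replicates was seen in 17 members with vehicle, 26 at 2 h and 6 at 12 h.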

How the data were processed

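Stranded total RNA from 6 NMuMG libraries was sequenced by the authors, aligned to mm9, reduced to unique reads without duplicates and counted over exons with featureCounts of Subread. The authors deposited these raw counts per gene without normalization. The submitters' processing notes also name SAMtools 0.1.19, limma 3.34.9 and edgeR 3.20.9. Groups came from the labels. Some genes are counted in the totals but not reported here by name.

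Members and gene lists were chosen with earlier results of these data known. Genes reaching 2 CPM in 2 or more libraries were fitted as counts with edgeR 4.0.16 (R 4.3.3; quasi-likelihood test, TMM factors, 3 groups in 1 fit, two-sided), with Benjamini-Hochberg adjustment per contrast over the 11080 genes tested, and a call was an adjusted p under 0.05. The authors tested with voom. Since the values are counts, edgeR gave the reported test here and voom was an alternative. The script was tested on simulated data. Strand, position and start site came from GENCODE on NCBIM37, the same assembly as mm9, and lengths for RPKM from its exons. Python 3.11.15, pandas 2.3.3 and matplotlib 3.10.9 were used.

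Genes named by rule were, for 2 h and 12 h against vehicle and each direction, up to 8 members with the largest absolute log2FC above 1 among those called, each holding 10 counts or more in both libraries of its higher-level group and no overlap between groups, up to 4 for 12 h against 2 h, the member with the highest mean CPM of each subfamily of 5 or more, and members of such a subfamily where its count is broken down. Any other member was named with its values in view. Alternatives were limma-voom 3.58.1, DESeq2 1.42.0, DESeq2 size factors, total counts, no filter, a filter of 10 counts or more in all libraries, a replicate block, a fit of only the groups compared, members by mean CPM, and each library left out in turn. One more, leaving out members that reach 2 CPM in a single group, was chosen after seeing the data. Intervals are at 95% and the floor is 3 counts per library, both for counting error only.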

Additional observations from a re-analysis of the deposited data

Results flagged for a closer look

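The direct contrast of 12 h with 2 h in edgeR's quasi-likelihood test does not use the vehicle libraries as a reference. Cells at 12 h had also spent 10 h longer without serum and insulin than those at 2 h. Beside 34.1% of all genes tested (15.2% higher and 18.9% lower), levels differed by this contrast for 81 of the 176 members. Of these 32 were higher and 49 lower at 12 h, and 32 of the 81 calls remained whichever library was left out. In 2 members, Slc7a7 and Slc43a2, the sign against vehicle turned, both times past the threshold with all libraries. The 2 h calls of both against vehicle, and the 12 h call of Slc7a7, did not remain whichever library was left out. Slc7a7 lay at 12 h below 2 h by a log2FC of -1.43 (SE 0.126, adjusted p = 0.000579), and Slc43a2 by -2.08 (SE 0.104, adjusted p = 0.000135), and both contrasts were called in all 6 fits with a library left out. No group had enough libraries for a test of single outlying samples.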

How the results depend on the processing

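In the 6 fits that each leave out 1 library, the number of members called ranged from 11 to 37 at 2 h (31 with all libraries), from 8 to 17 with an absolute log2FC above 1 (14), from 62 to 106 at 12 h (100) and from 37 to 81 for 12 h against 2 h (81). At 2 h, a fit of only the 2 groups compared called 17 members. Fewer libraries inform the spread in these fits. All other alternatives without the replicate block kept the counts within 1.5 times, limma-voom and DESeq2 included. For the 34 genes named by rule, 1404 values under alternatives were computed, of which 1296 kept their direction and side of the threshold, 78 lost the call, 15 gained it, 15 without a call moved by more than the replicate spread, and 0 reversed. At least 10 counts in every library left 8 of the 34 genes untested.

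Deviations from the group mean correlated across the genes tested for equally numbered libraries (r = 0.708 for vehicle with 2 h, 0.263 for vehicle with 12 h, 0.392 for 2 h with 12 h), but each comparison has only 2 such pairs and the libraries share only a number. With the replicate block 47 members were called at 2 h, 118 at 12 h and 102 for 12 h against 2 h, and these hold all calls made without it. With 2 libraries a group and under 3 CPM, members such as Slc11a1, Slc39a2 and Slc17a9 rest on few counts.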
